A study of Rattus norvegicus with 13 samples.

Results

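The genes described here are 10 genes of the Nrf2 antioxidant pathway and of glutathione synthesis in the left ventricle of pregnant rats, namely Nfe2l2, Keap1, Hmox1, Nqo1, Gclc, Gclm, Gss, Gsr, Srxn1 and Txnrd1. They were taken by gene symbol from an Affymetrix rat array, on which each gene is read by 1 or more probe sets, each a group of short oligonucleotides with a single signal. All 10 genes were found among the 14217 genes named by at least 1 probe set with a single symbol. They were read by 15 probe sets, 6 genes by 1, 3 genes by 2 and 1 gene by 3, and each gene was counted by its brightest probe set. The 13 arrays, 1 per rat, came from female Sprague Dawley rats that weighed 200 to 250 g at purchase and whose age the labels do not give. Of these, 5 were control rats, 4 drank water with 9 g/L of methionine (Met-fed) and 4 drank water with 1 g/L of L-NAME, an inhibitor of nitric oxide synthesis. By the labels, treatment covered gestation days 1 to 20 and the rats were killed on day 20 or 21. All groups were pregnant, so no array shows the nonpregnant heart, and the tissue is a mixture of cell types. The labels do not give parity, while the study describes rats that had been mated repeatedly. It describes methionine water from the first of several pregnancies until death, a longer exposure than the labels give. It describes L-NAME only as an addition to tissue in vitro, and no L-NAME-fed rats.

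Nrf2, the product of Nfe2l2, is a transcription factor that Keap1 binds and hands over for degradation. Oxidants and electrophiles modify cysteines of Keap1, Nrf2 then accumulates, pairs with a small Maf protein and binds antioxidant response elements near its target genes. The targets make glutathione, the main small thiol of the cell, reduce oxidized thiols and quinones, and break down heme. In the heart this system limits damage by peroxides. It is controlled largely at the level of Nrf2 protein, which arrays do not measure.

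In the methionine-fed hearts none of the 10 genes differed from control past the adjusted threshold of 0.05. In the L-NAME-fed hearts 4 of the 10 genes rose and 2 fell against control in the signals as deposited. After quantile normalization 3 were called higher and 3 lower, and after centring each array on its median 2 were called higher and 4 lower. Srxn1, Nqo1, Txnrd1 and Gsr, which reduce peroxiredoxins, quinones, thioredoxin and oxidized glutathione, were the 4 that rose. The call of Gsr, the dimmest of the 10, was lost after quantile normalization, and those of Nqo1 and Txnrd1 after centring. Gclc and Gclm, the subunits of the enzyme that makes the first bond of glutathione, were the 2 that fell. The fall of Gclc rests on its bright probe set, since a dim one changed by 0.66 (limma, adjusted p = 0.0576). With the probe sets of a gene averaged, the calls of Gclc (-0.16, limma, adjusted p = 0.476) and Srxn1 (0.62, limma, adjusted p = 0.119) were lost. About as large a share of the whole array moved with L-NAME, 24.2% of the 14217 genes up and 25.2% down (limma, Benjamini-Hochberg adjusted), so the number of calls does not set these genes apart.

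The L-NAME-fed arrays stood apart from the others in measures that are not specific to any gene. Their median signal was 34.2 to 36.9, against 25.7 to 27.2 on the control arrays and 25.8 to 29.2 on the Met-fed arrays, although the trimmed mean was 150 on every array. The log2 ratio of the 3′ to the 5′ beta-actin control probe set, a common reading of RNA integrity, was 2.32 to 2.70 on the L-NAME-fed arrays and 3.31 to 3.67 on the control arrays (exact permutation test, 2-sided, p = 0.0159, the smallest that 4 against 5 arrays allow). It was 3.32 to 3.71 on the Met-fed arrays, so the excess of 3′ signal was smallest on the L-NAME-fed arrays. The GAPDH ratio was likewise lower with L-NAME (0.44 to 0.66) than in control (1.04 to 1.31). The summed signal of 8 measured cardiomyocyte markers was 17960 to 20863 on the L-NAME-fed arrays and 28176 to 30975 on the control arrays, and all 8 were called lower. All 8 were above every bacterial control probe set on every array, as the labelled tissue requires. The sum of 12 leukocyte and macrophage markers was 4602 to 6338 with L-NAME and 6468 to 7577 in control, and that of 7 endothelial markers was 5216 to 5590 and 6543 to 7702. The sums of fibroblast markers (9494 to 11908 with L-NAME, 10839 to 13266 in control), smooth muscle markers (382 to 1186 and 268 to 635), atrial markers (1300 to 3841 and 1020 to 2372), blood markers (3212 to 3823 and 3234 to 4528) and adipocyte markers (51.8 to 421 and 75.4 to 400) overlapped between these groups. Of the adipocyte markers Adipoq, Plin1, Lep and Cidec were not above the bacterial controls on every array, nor were Ahsp of blood and Itgam of leukocytes. In whole ventricle, fewer cells of a type and less RNA per cell cannot be told apart. No batch is given in the labels, so L-NAME and whatever else set these 4 arrays apart cannot be told apart, and the part of these shifts in the results below was not tested. For that reason the values after quantile normalization and after centring each array on its median are given wherever they change a call. The median log2 change of all genes between L-NAME-fed and control arrays was 0.01 as deposited, -0.14 after quantile normalization and -0.42 after centring. These scalings also moved the calls over all genes, from 3443 up and 3581 down as deposited to 2864 up and 4264 down after quantile normalization and 1581 up and 5985 down after centring.

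**Figure D1:**
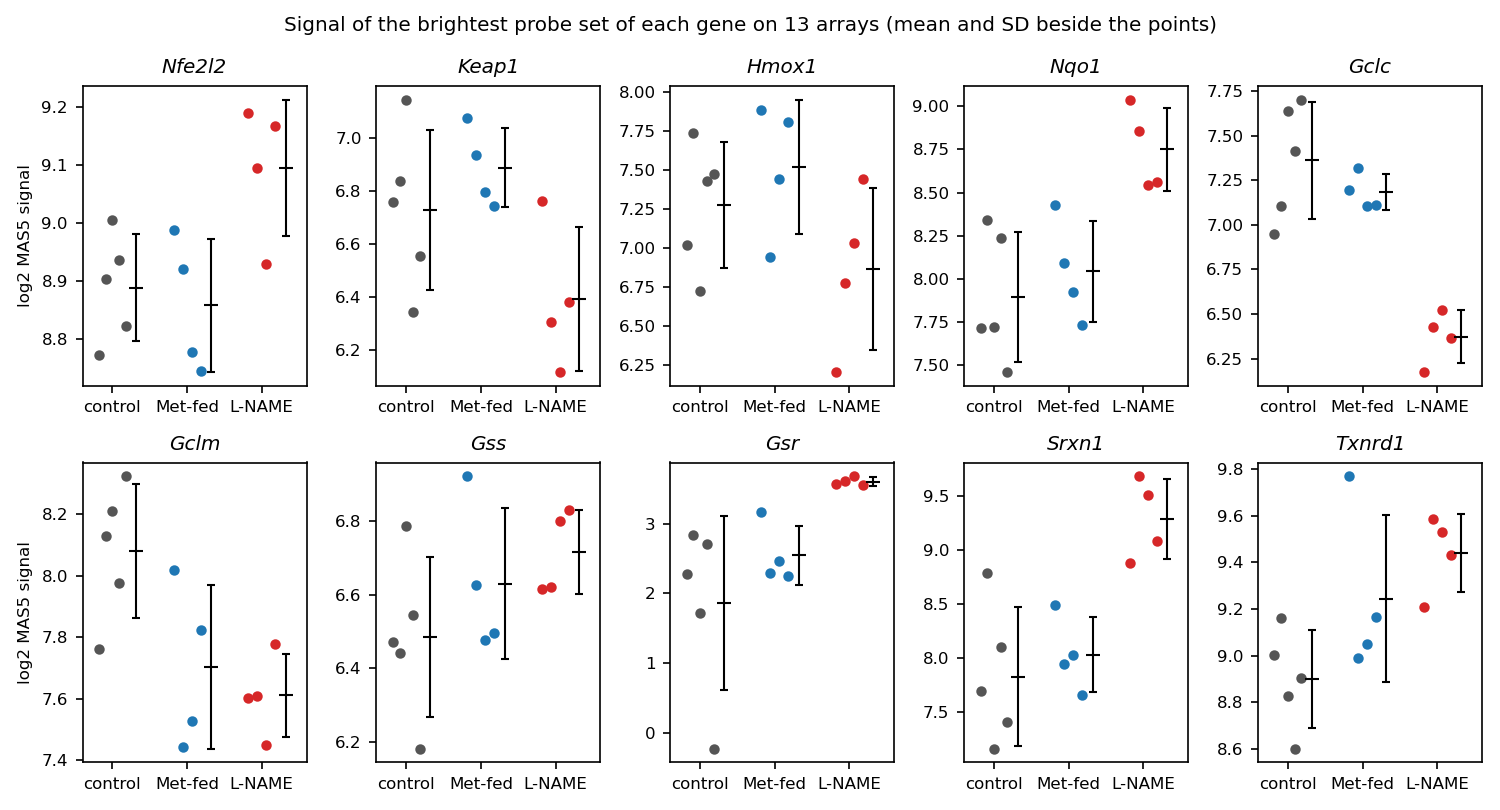
Log2 MAS5 signal of the brightest probe set of each of the 10 genes on each array, with 5 control, 4 Met-fed and 4 L-NAME-fed rats. Each point is 1 rat and the bar beside the points is the mean with its SD, and each panel has its own vertical axis that does not start at 0. The L-NAME-fed points of Nqo1, Gsr, Srxn1 and Txnrd1 lie above all control points and those of Gclc lie below them.

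Neither regulator, Nfe2l2 or Keap1, passed the threshold against control in the signals as deposited. The log2 signal of Nfe2l2 was 8.77, 8.90, 9.01, 8.94 and 8.82 on the control arrays, 8.99, 8.92, 8.78 and 8.75 on the Met-fed arrays and 9.19, 9.09, 8.93 and 9.17 on the L-NAME-fed arrays. The lowest L-NAME-fed array lay within the control range. The log2 change with L-NAME against control was 0.21 ± 0.08 (SE, n = 4 and 5) and missed the threshold (limma, adjusted p = 0.055). It was -0.22 after centring and 0.20 after quantile normalization, so its direction depended on the scaling. The change passed the threshold without control replicate 3 (adjusted p = 0.0412), Met-fed replicate 1 (adjusted p = 0.0468) or L-NAME-fed replicate 3 (adjusted p = 0.0264). It also passed with an offset of 16 (adjusted p = 0.0456) or 50 (adjusted p = 0.0417), with the filter at the median signal (adjusted p = 0.0386), with probe sets averaged (adjusted p = 0.0474) and in the methods' t-test (adjusted p = 0.0486). Met-fed and control hearts differed by -0.03 ± 0.08 in Nfe2l2 (95% interval -0.21 to 0.15).

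Keap1 was read by a bright and a dim probe set. The bright one gave a log2 signal of 6.76, 6.84, 7.15, 6.34 and 6.55 in control hearts, 7.08, 6.94, 6.79 and 6.74 in Met-fed hearts and 6.76, 6.31, 6.12 and 6.38 in L-NAME-fed hearts. The L-NAME-fed hearts overlapped with control, with a log2 change of -0.34 ± 0.16 (limma, adjusted p = 0.109). After quantile normalization the change was -0.60 (adjusted p = 0.00525) and after centring -0.76 (adjusted p = 0.00101), both past the threshold. The call also appeared without control replicate 4 (-0.43, adjusted p = 0.0407) and without L-NAME-fed replicate 1 (-0.46, adjusted p = 0.0376). With both Keap1 probe sets averaged it was 0.55 ± 0.38, in the other direction (adjusted p = 0.256). With Met the bright probe set changed by 0.16 ± 0.16 (adjusted p = 0.770). The dim probe set, whose signal was -1.51 to 2.24 in control hearts and 1.68 to 2.80 in L-NAME-fed hearts on the log2 scale, was above the bacterial control probe sets on 1 of 5 control, 0 of 4 Met-fed and 3 of 4 L-NAME-fed arrays. Its change with L-NAME, 1.44 ± 0.67 (adjusted p = 0.0915) and 1.80 without control replicate 1 (adjusted p = 0.0374), is therefore not read as a rise.

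Glutathione is made in 2 steps. Glutamate-cysteine ligase, with Gclc as its catalytic and Gclm as its modifier subunit, joins glutamate to cysteine and sets the rate, and glutathione synthetase, encoded by Gss, adds glycine. The promoter windows of the ligase subunits are shown because these were the genes that fell with L-NAME. Windows ran from 250 bases before to 50 bases after the annotated start, 5′ to 3′ on the gene's strand, from RefSeq on GRCr8. Of the 10 genes, 8 were matched to 9 windows, and Hmox1 and Gsr were not matched. Capitals mark matches on either strand to TGACNNNGC, the core of the antioxidant response element. The Gclm window lies at chr2:213031885-213032184 on the plus strand and holds 1 match on the opposite strand, TGACTAAGC, at position 79 of the window. The Gclc window lies at chr8:87510226-87510525 on the plus strand and holds none.
Gclm: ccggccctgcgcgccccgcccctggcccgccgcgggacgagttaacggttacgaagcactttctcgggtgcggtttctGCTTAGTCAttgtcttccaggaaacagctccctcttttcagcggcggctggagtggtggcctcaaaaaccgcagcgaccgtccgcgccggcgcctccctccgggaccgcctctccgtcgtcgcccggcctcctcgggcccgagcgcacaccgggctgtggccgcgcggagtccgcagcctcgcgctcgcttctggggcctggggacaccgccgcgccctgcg
Gclc: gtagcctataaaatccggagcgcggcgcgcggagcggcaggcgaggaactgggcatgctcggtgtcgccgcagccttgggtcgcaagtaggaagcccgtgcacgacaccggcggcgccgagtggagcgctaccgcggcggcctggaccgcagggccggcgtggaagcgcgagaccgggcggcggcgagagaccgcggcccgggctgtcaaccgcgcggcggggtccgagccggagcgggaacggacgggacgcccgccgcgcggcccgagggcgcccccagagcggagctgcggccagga
The core was found in the windows of 3 of the 8 genes, Gclm, Txnrd1 and Nfe2l2, and in 12.1% of all 33469 windows. A match describes the letters alone, and no match says nothing of elements outside the window.

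Gclc fell furthest of the 10 by its bright probe set, whose log2 signal was 6.95, 7.10, 7.64, 7.41 and 7.70 in control hearts, 7.20, 7.32, 7.11 and 7.11 in Met-fed hearts and 6.17, 6.43, 6.53 and 6.36 in L-NAME-fed hearts. All 4 L-NAME-fed hearts lay below every control and every Met-fed heart. The signal was 1.98-fold lower with L-NAME than in control (95% interval 1.59 to 2.47), a log2 change of -0.99 ± 0.15 (limma, adjusted p = 4.66e-05; exact permutation test p = 0.0159). Against Met-fed hearts it was -0.81 ± 0.16 (adjusted p = 0.000654), and Met-fed hearts differed from control by -0.18 ± 0.15 (95% interval -0.50 to 0.14). This probe set stayed past the threshold against control in all 22 alternatives in which it was tested by itself, between -0.69 and -1.41. With the probe sets of a gene averaged the Gclc call was lost, at -0.16 ± 0.17 against control (adjusted p = 0.476) and -0.20 ± 0.18 against Met-fed hearts (adjusted p = 0.412). It was the only 1 of the 10 genes to lie below the control range without overlap, where 22% of all genes did.

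The dim Gclc probe set went the other way. Its log2 signal was 3.31 to 4.12 in control hearts, 3.64 to 4.32 in Met-fed hearts and 3.76 to 4.71 in L-NAME-fed hearts, with 3 of the 4 L-NAME-fed hearts above every control. The change was 0.66 ± 0.27 and missed the threshold (limma, adjusted p = 0.0576). It passed without control replicate 4 (0.77, adjusted p = 0.0362) or L-NAME-fed replicate 1 (0.85, adjusted p = 0.0225). It also passed with an offset of 16 (0.34, adjusted p = 0.0368) or 50 (0.17, adjusted p = 0.0291). With no trend in the variance prior it passed too (adjusted p = 0.0390). It was not called after quantile normalization (0.17, adjusted p = 0.649) or centring (0.24, adjusted p = 0.514). Which part of the transcript each probe set reads was not examined, so the fall of Gclc rests on the bright probe set alone.

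Gclm fell by less, from a log2 signal of 7.76, 8.13, 8.21, 7.98 and 8.32 in control hearts to 7.60, 7.61, 7.45 and 7.78 in L-NAME-fed hearts, and it was 8.02, 7.44, 7.53 and 7.82 in Met-fed hearts. The lowest control heart lay inside the L-NAME-fed range and the other 4 above it. The signal was 1.38-fold lower with L-NAME (95% interval 1.13 to 1.69), a log2 change of -0.47 ± 0.14 (limma, adjusted p = 0.00917; exact permutation test p = 0.0318), and it passed the threshold in all 22 alternatives. In Met-fed hearts the change was -0.38 ± 0.14, with an unadjusted p of 0.0132 and an adjusted p of 0.358 (limma), so it was not called. L-NAME-fed and Met-fed hearts differed by -0.09 in Gclm as deposited (95% interval -0.39 to 0.21), and both comparisons share the control arrays. After centring this difference was -0.46 and was called (limma, adjusted p = 0.0131). After quantile normalization it was -0.22 and was not called (adjusted p = 0.204).

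Gss did not pass the threshold in any comparison. Log2 signals of 6.18 to 6.79 in control hearts, 6.48 to 6.92 in Met-fed hearts and 6.61 to 6.83 in L-NAME-fed hearts were measured, so the groups overlapped. The change with L-NAME was 0.23 ± 0.14 (limma, adjusted p = 0.190) and turned to -0.02 after quantile normalization and -0.19 after centring. With Met it was 0.15 ± 0.14. The last step of the synthesis showed no called change beside the called falls of Gclm and of the bright Gclc probe set in the first.

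Gsr, glutathione reductase, returns oxidized glutathione to its reduced form with NADPH. It was the dimmest of the 10 and the only 1 below the median log2 signal of all probe sets (4.87). Its log2 signal was 2.27, 2.84, 1.72, 2.71 and -0.23 in control hearts, 3.17, 2.30, 2.47 and 2.25 in Met-fed hearts and 3.58, 3.61, 3.68 and 3.55 in L-NAME-fed hearts. The L-NAME-fed hearts were close together and above all others, while control replicate 5 was the lowest of all. The log2 change with L-NAME was 1.74 ± 0.52 (limma, adjusted p = 0.0111; exact permutation test p = 0.0159), and without control replicate 5 it was 1.22. The signal was above the bacterial controls on 3 of the 5 control arrays and on all Met-fed and L-NAME-fed arrays, so the size of the change is uncertain. With 16 added to every signal it was 0.47 (adjusted p = 0.000564) and with 50 added it was 0.19 (adjusted p = 0.000299). After quantile normalization it was 1.26 and missed the threshold (adjusted p = 0.0525), as it did in the methods' t-test (adjusted p = 0.0632). With Met the change was 0.68 ± 0.52 (95% interval -0.42 to 1.78), and L-NAME-fed against Met-fed hearts gave 1.06 ± 0.55 (adjusted p = 0.138), which passed the threshold without control replicate 5 (adjusted p = 0.0238). It also passed with an offset of 16 (0.36, adjusted p = 0.00688) or 50 (0.15, adjusted p = 0.00337), with the compared groups alone (adjusted p = 0.0171) and in the methods' t-test (adjusted p = 0.0122), and not after quantile normalization (0.54, adjusted p = 0.472) or centring (0.69, adjusted p = 0.339).

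Srxn1 and Txnrd1 serve the thioredoxin branch. Sulfiredoxin, encoded by Srxn1, rescues peroxiredoxins that peroxide has over-oxidized, and thioredoxin reductase, encoded by Txnrd1, reduces cytosolic thioredoxin with NADPH. Their promoter windows are shown because both genes rose with L-NAME. The Srxn1 window lies at chr3:161064562-161064861 on the plus strand. It holds no TGACNNNGC but has 2 sites of TGANTCA, the AP-1 motif, read as TGAGTCA at positions 189 and 246, and it was the only 1 of the 8 genes with that motif, which 7.33% of all windows hold. After the windows had been read, TGAGNNNGC, a form of the antioxidant response element that the first search left out, was also searched. It matched in the Srxn1 window at positions 133, 234 and 246, the last as TGAGTCAGC over the second AP-1 motif, and in 17.2% of all windows. The Txnrd1 window lies at chr7:22755855-22756154 on the minus strand and holds TGACAAAGC on the opposite strand at position 173. Capitals mark the matches to these motifs on either strand.
Srxn1: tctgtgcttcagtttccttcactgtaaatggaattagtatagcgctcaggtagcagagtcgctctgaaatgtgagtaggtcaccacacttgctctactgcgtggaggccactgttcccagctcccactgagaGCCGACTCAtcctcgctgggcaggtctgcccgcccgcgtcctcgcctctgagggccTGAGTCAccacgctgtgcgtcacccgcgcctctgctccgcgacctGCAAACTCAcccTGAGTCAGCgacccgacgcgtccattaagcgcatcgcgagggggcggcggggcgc
Txnrd1: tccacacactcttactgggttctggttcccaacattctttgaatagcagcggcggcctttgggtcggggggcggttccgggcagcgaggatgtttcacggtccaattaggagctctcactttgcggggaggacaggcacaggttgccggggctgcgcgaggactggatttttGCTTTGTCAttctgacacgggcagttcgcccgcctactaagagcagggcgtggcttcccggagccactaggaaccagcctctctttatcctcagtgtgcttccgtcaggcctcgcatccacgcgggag
A further Txnrd1 window, at another annotated start, held none of these motifs.

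Srxn1 rose most among the bright genes. Its log2 signal was 7.69, 8.78, 7.15, 8.10 and 7.40 in control hearts, 8.49, 7.94, 8.03 and 7.65 in Met-fed hearts and 8.88, 9.68, 9.51 and 9.08 in L-NAME-fed hearts. Control hearts were widely spread, and the lowest L-NAME-fed heart was still just above the highest of them. The signal was 2.76-fold higher with L-NAME than in control (95% interval 1.85 to 4.10), a log2 change of 1.46 ± 0.27 (limma, adjusted p = 0.000298; exact permutation test p = 0.0159). It was 1.26 ± 0.28 above Met-fed hearts on the log2 scale (adjusted p = 0.0021). In Met-fed hearts the change from control was 0.20 ± 0.27, which missed the threshold (adjusted p = 0.828). The rise of this probe set against control passed the threshold in all 22 alternatives in which it was tested by itself and was 1.04 after centring. With the 3 Srxn1 probe sets averaged, the third of which is near background, the change was 0.62 ± 0.31 and missed the threshold (adjusted p = 0.119).

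The other Srxn1 probe sets were dimmer. The second gave a log2 signal of 2.84 to 3.72 in control hearts and 4.15 to 4.61 in L-NAME-fed hearts, with no overlap, and rose by 1.25 ± 0.42 (limma, adjusted p = 0.0209). That call was lost after quantile normalization (0.76, adjusted p = 0.135), after centring (0.83, adjusted p = 0.107) and without L-NAME-fed replicate 2 (1.17, adjusted p = 0.0574). The third lay at 0.21 or below on all L-NAME-fed arrays, under the highest bacterial control probe set, which marks the level of no specific signal. Its change of -0.87 ± 0.65 (adjusted p = 0.304) is therefore not read as a fall.

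Txnrd1 rose moderately. The log2 signal of its bright probe set was 9.00, 9.16, 8.83, 8.60 and 8.91 in control hearts, 9.77, 8.99, 9.05 and 9.17 in Met-fed hearts and 9.21, 9.59, 9.53 and 9.43 in L-NAME-fed hearts. The L-NAME-fed hearts were all above control by a narrow margin, and the highest heart of all was Met-fed replicate 1. The signal was 1.45-fold higher with L-NAME than in control (95% interval 1.17 to 1.80), a log2 change of 0.54 ± 0.15 (limma, adjusted p = 0.00648; exact permutation test p = 0.0159). After quantile normalization the change was 0.58 and after centring only 0.11 (adjusted p = 0.547). In Met-fed hearts it was 0.34 ± 0.15, with an unadjusted p of 0.0322 and an adjusted p of 0.425, and 0.17 without Met-fed replicate 1. L-NAME-fed and Met-fed hearts differed by 0.19 (95% interval -0.14 to 0.52), and by 0.37 without Met-fed replicate 1 (adjusted p = 0.0268). The dim Txnrd1 probe set changed by 0.66 ± 0.28 with L-NAME against control (limma, adjusted p = 0.0658), which missed the threshold. It passed without control replicate 5 (0.78, adjusted p = 0.0374) or Met-fed replicate 1 (adjusted p = 0.0282). It also passed in 3 of the 9 alternatives other than leaving out an array.

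Nqo1 and Hmox1 are the targets most often used to read the pathway. Nqo1 reduces quinones by a pair of electrons at once, which keeps them from forming radicals. Its log2 signal was 7.72, 8.34, 7.72, 8.24 and 7.46 in control hearts, 8.43, 8.09, 7.92 and 7.73 in Met-fed hearts and 9.04, 8.86, 8.55 and 8.56 in L-NAME-fed hearts. All 4 L-NAME-fed hearts were above every other heart. The signal was 1.81-fold higher than in control (95% interval 1.39 to 2.36), a log2 change of 0.86 ± 0.18 (limma, adjusted p = 0.000979; exact permutation test p = 0.0159), and the change against Met-fed hearts was 0.71 ± 0.19 (adjusted p = 0.00733). It was 0.78 after quantile normalization, and 0.43 after centring, where it just missed the threshold (adjusted p = 0.0524), and against Met-fed hearts it was 0.34 after centring (adjusted p = 0.158). In Met-fed hearts the change was 0.15 ± 0.18 (95% interval -0.24 to 0.53).

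Hmox1, heme oxygenase 1, breaks heme into iron, carbon monoxide and biliverdin. The array signals on the log2 scale were 7.02, 7.74, 6.72, 7.43 and 7.47 in control hearts, 7.88, 6.94, 7.45 and 7.81 in Met-fed hearts and 6.21, 6.78, 7.04 and 7.44 in L-NAME-fed hearts, so all groups overlapped. With L-NAME it was -0.41 ± 0.25 (limma, adjusted p = 0.200) as deposited, -0.63 (adjusted p = 0.0579) after quantile normalization and -0.84 (adjusted p = 0.00964) after centring. The change with Met was 0.24 ± 0.25. L-NAME-fed against Met-fed hearts gave -0.66 ± 0.27 (adjusted p = 0.0601), which passed the threshold after quantile normalization (-0.83, adjusted p = 0.0232) and centring (-1.02, adjusted p = 0.00438). It also passed without control replicate 3 (adjusted p = 0.0486), Met-fed replicate 2 (adjusted p = 0.0198) or L-NAME-fed replicate 4 (adjusted p = 0.0209).

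**Figure D2:**
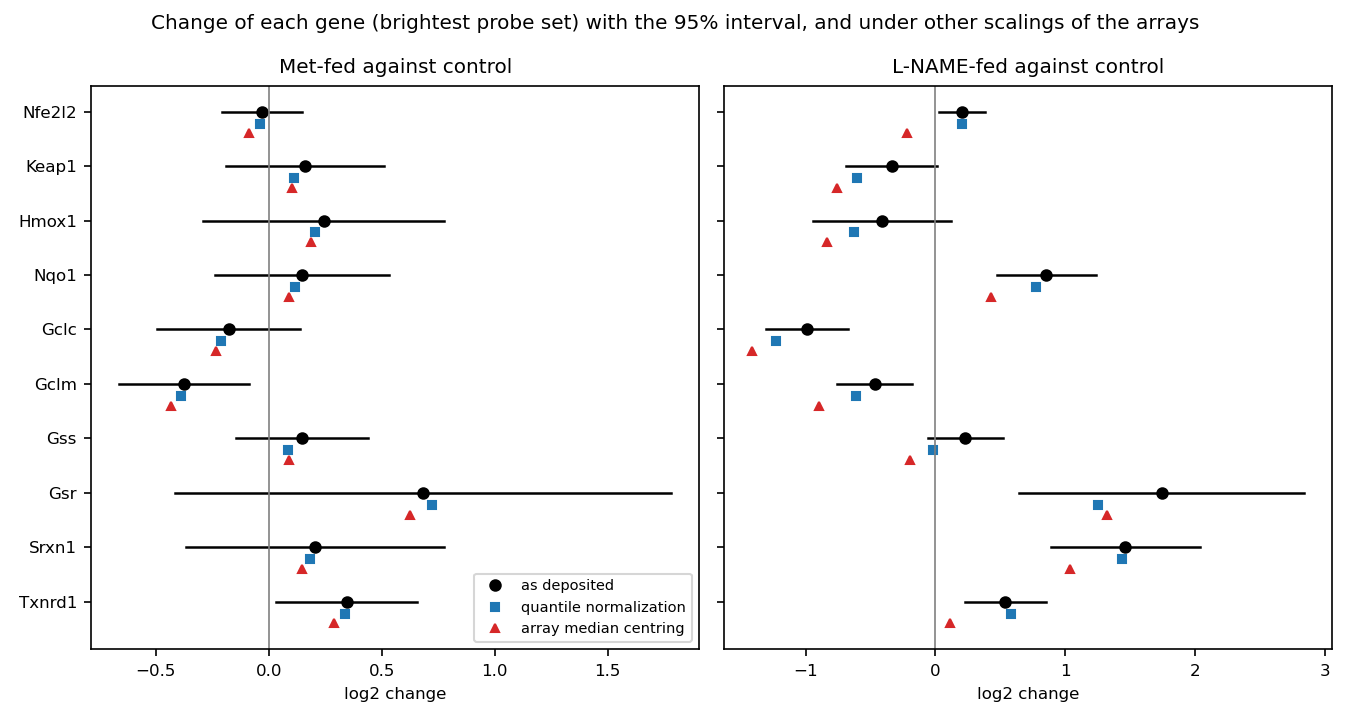
Log2 change of each gene's brightest probe set in Met-fed (left) and L-NAME-fed (right) hearts against control, black points with 95% intervals from limma, with blue squares after quantile normalization and red triangles after centring each array on its median. The Met-fed intervals include 0 for all genes except Gclm and Txnrd1. With L-NAME, Srxn1, Gsr, Nqo1 and Txnrd1 stay above 0 and Gclc, Gclm, Keap1 and Hmox1 below 0 under each scaling, while Nfe2l2 and Gss change sign.

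Each treatment was compared with the same 5 control hearts. With L-NAME 4 genes lay above the control range without overlap, as did 21.3% of all genes. These 4 were also the genes called up. The median log2 change of the 10 genes as deposited was 0.22 with L-NAME and 0.15 with Met, against 0.01 and -0.01 over all genes. Over all probe sets the median with L-NAME was also 0.22, so that of the 10 genes is not read as a shift of the pathway. With Met 0% of all genes passed the adjusted threshold. By unadjusted p under 0.05, 2 of the 10 did in limma, Gclm and Txnrd1, and 11% of all genes did. In the methods' t-test 0 of the 10 had an unadjusted p under 0.05, where 2478 of all 31042 probe sets did. Neither test called any of the 10 after adjustment. Adjusted p-values of the 10 with Met ran from 0.358 to 0.929.

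The difference between the treatments was tested directly in L-NAME-fed against Met-fed hearts. Nfe2l2, Nqo1 and Srxn1 were higher and Keap1 and Gclc were lower, where 21.5% of all genes were called higher and 22.5% lower (limma). Nfe2l2 was higher by 0.24 ± 0.09 (adjusted p = 0.0425) and Keap1 lower, at -0.50 ± 0.17 (adjusted p = 0.0312), both near the threshold. After centring Nfe2l2 turned to -0.13 and was not called (adjusted p = 0.299). Its call was also lost with the compared groups alone (adjusted p = 0.0630), with no trend in the variance prior (adjusted p = 0.0826) and in the methods' t-test (adjusted p = 0.0697). The Nfe2l2 call was further lost without control replicate 4, Met-fed replicate 3 or 4, or L-NAME-fed replicate 1, 2 or 4, with adjusted p from 0.0516 to 0.117 and log2 changes from 0.20 to 0.24. The Keap1 call was lost with no trend in the variance prior (adjusted p = 0.0510), in the methods' t-test (adjusted p = 0.0518) and with its probe sets averaged (0.56, adjusted p = 0.284). It was also lost without Met-fed replicate 1 or 2 or L-NAME-fed replicate 2, 3 or 4, with adjusted p from 0.0588 to 0.101 and log2 changes from -0.49 to -0.40. Without L-NAME-fed replicate 2, only 3 of the 5 calls were made. Gsr and Txnrd1, called against control, were not called against Met-fed hearts as deposited, and Gclm was not either. After centring Gclm was called lower than in Met-fed hearts (-0.46, limma, adjusted p = 0.0131).

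**Figure D3:**
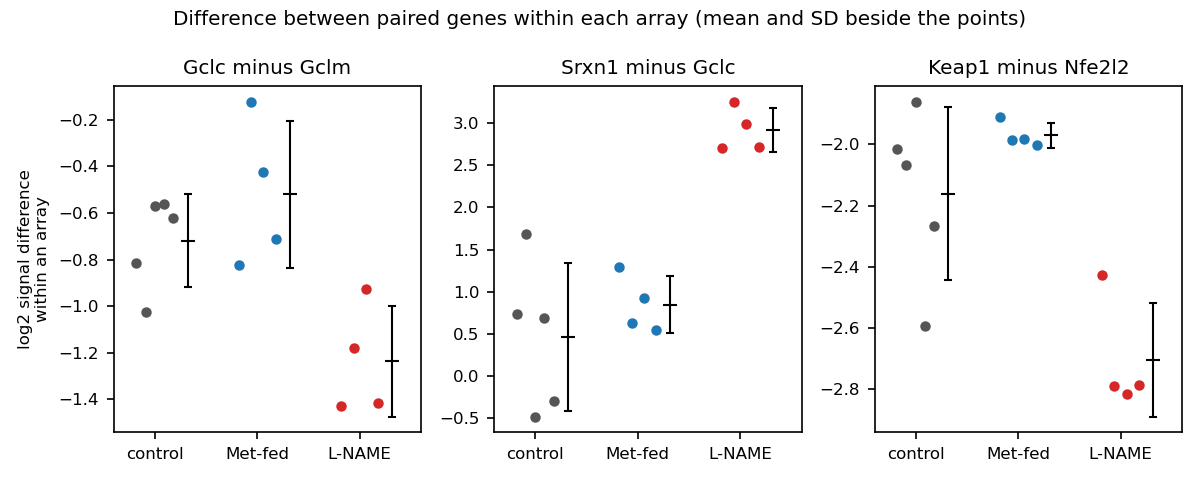
Log2 difference between the signals of paired genes within each array, by the brightest probe set of each gene. The pairs are Gclc minus Gclm, Srxn1 minus Gclc and Keap1 minus Nfe2l2, with 1 point per rat and the mean and SD beside them. The Srxn1 minus Gclc difference was 2.70 to 3.25 in L-NAME-fed hearts and no higher than 1.68 in the other hearts.

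A difference between genes within an array does not move when the whole array is rescaled by a single factor. A shift that depends on the signal level does not cancel in it. The mean shift of each pair restates the changes of its genes given above. Probe sets do not share a scale, so only its shift between groups is read, and the pairs were chosen after their values were seen, so no test is given. Srxn1 minus Gclc was -0.49 to 1.68 in control hearts, 0.55 to 1.29 in Met-fed hearts and 2.70 to 3.25 in L-NAME-fed hearts, 2.45 higher than control on average. Gclc minus Gclm was -1.02 to -0.56 in control hearts, -0.82 to -0.12 in Met-fed hearts and -1.43 to -0.93 in L-NAME-fed hearts. The bright Gclc probe set was thus lower relative to Gclm with L-NAME, with overlap. The dim Gclc probe set, which changed by 0.66 with L-NAME against control, went the other way and was not paired. Keap1 minus Nfe2l2 was -2.59 to -1.86 in control hearts, -1.97 on average in Met-fed hearts and -2.82 to -2.43 in L-NAME-fed hearts.

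The wider network was read from 7 lists of 138 genes, of which 124 were measured. With L-NAME 34 of them (27.4%) were called higher and 43 (34.7%) lower than control, beside 24.2% higher and 25.2% lower over all genes, and with Met none was called. The counts of each list below stand against the same shares of all genes. They and the changes named are as deposited, and whether they hold under the other scalings was not tested. Among 15 other regulators of Nrf2, 3 rose and 7 fell, with a median log2 change of -0.41. Mafk, a small Maf partner of Nrf2, rose by 0.98 ± 0.11 and Nfe2l1, a related factor, changed by -0.69 ± 0.08. The other small Maf genes of the list went the other way. Maff was called lower at -1.05 (limma, adjusted p = 2.8e-05), and Mafg, at -0.28, was not called (adjusted p = 0.182). Among 9 genes of NADPH supply, the cofactor of Gsr, Txnrd1 and Nqo1, 4 rose and 4 fell. Me1, malic enzyme, changed by -0.80 ± 0.09 and Taldo1, transaldolase of the pentose phosphate pathway, by -0.79 ± 0.09.

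Among 18 genes of cysteine supply and of glutathione breakdown and export, 5 rose and 4 fell with L-NAME (median 0.19). Both enzymes named here make or use 5-oxoproline in the glutathione cycle. Ggct, which releases it, rose by 0.75 ± 0.12, and Oplah, which opens it to glutamate, changed by -1.33 ± 0.21. Among 32 glutathione peroxidases, transferases and glutaredoxins, 9 rose and 11 fell (median -0.25), with Glrx2, the mitochondrial glutaredoxin, at -1.31 ± 0.08 and Gpx4, which reduces lipid peroxides, at -0.80 ± 0.09. Among 17 thioredoxins and peroxiredoxins, 6 rose and 6 fell. Prdx4, the peroxiredoxin of the endoplasmic reticulum, rose by 1.04 ± 0.12 and Txnip, which binds and inhibits thioredoxin, changed by -0.60 ± 0.07.

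Among 13 genes of heme and iron handling 3 rose and 4 fell, with Abcb6, a porphyrin transporter, at 0.70 ± 0.12 and Slc40a1, the iron exporter ferroportin, at -0.86 ± 0.12. Among 20 genes of quinone, carbonyl and epoxide detoxification 4 rose and 7 fell (median -0.32), with Aldh3a2, a fatty aldehyde dehydrogenase, at -1.05 ± 0.08 and Ptgr2, a prostaglandin reductase, at -0.61 ± 0.09. All of the L-NAME values named from the lists, except that of Mafg, passed the threshold as deposited (limma, Benjamini-Hochberg adjusted p at most 0.000221).

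**Figure D4:**
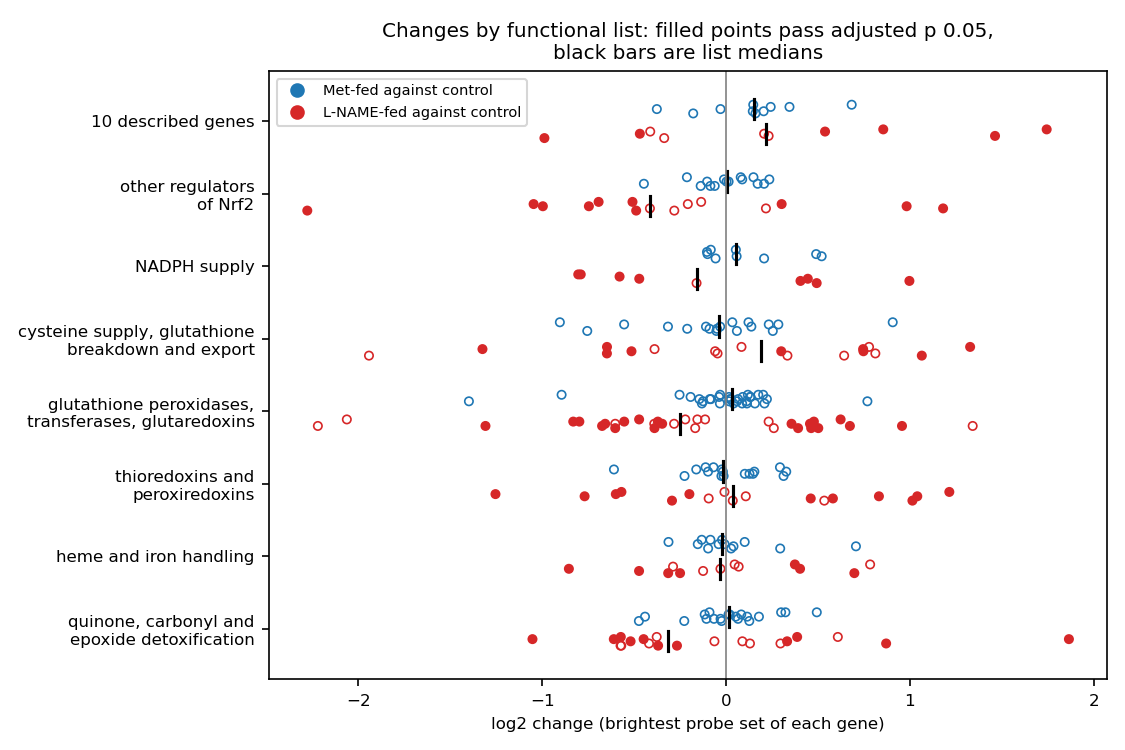
Log2 change against control of the 10 described genes and of the measured genes of 7 lists of the wider network, by the brightest probe set, in Met-fed (blue) and L-NAME-fed (red) hearts. Filled points passed an adjusted p of 0.05 and black bars are list medians. With L-NAME each list holds called genes on both sides of 0, and with Met no point is filled.

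With Met the genes of the lists with the smallest p did not pass the threshold either. Of the 124 genes, 10 had an unadjusted p under 0.05 (limma), and the smallest adjusted p was 0.274. The genes nearest to the threshold included 2 of the pentose phosphate pathway, Tkt at 0.52 ± 0.14 and Pgls at 0.49 ± 0.15 on the log2 scale. Aldh2, the mitochondrial aldehyde dehydrogenase, gave 0.32 ± 0.09 and Nqo2, a quinone reductase related to Nqo1, gave -0.44 ± 0.14. Sesn1, a sestrin, gave -0.61 ± 0.18 and Txnip -0.16 ± 0.07. Cul3, the ubiquitin ligase scaffold that works with Keap1, gave -0.21 ± 0.06 and Syvn1, a ubiquitin ligase of the endoplasmic reticulum, gave 0.24 ± 0.11. In the remaining lists Ggct gave 0.28 ± 0.12, Ggt7 0.91 ± 0.39, Abcb6 0.29 ± 0.12, Aco1 -0.15 ± 0.10, Gstm2 0.20 ± 0.10 and Gpx8 0.22 ± 0.13.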

How the data were processed

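Left ventricle RNA of 13 pregnant rats was read on Affymetrix rat genome arrays. The deposited intensity values are linear MAS5 signals computed by the authors (version not given), with a 2% trimmed mean of 150 on every array. No further normalization was applied. Of 31099 probe sets, 57 manufacturer's controls were dropped, and log2 values of the other 31042 were fitted with limma 3.58.1 in R 4.3.3, with 1 coefficient per group, no covariate and a variance prior that follows the signal. Benjamini-Hochberg adjustment ran over all tested probe sets. Gene symbols came from the platform annotation, in which 20826 probe sets had 1 symbol, 436 several and 9780 none. Exact permutation tests were 2-sided (scipy 1.17.1), and 0.0286 is the smallest p for 4 against 4 arrays. The model was tested on simulated data. The number of arrays limits the precision.

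The genes and lists were chosen with earlier results of these data known. Named genes were the 10 described, with every probe set, and from each list the 2 genes with the smallest p in each treatment against control. Maff and Mafg were named in addition, beside Mafk. The levels of marker lists for blood, atrium, fibroblasts, smooth muscle and adipocytes were also read. All 13 arrays were used, although the paper describes 4 control arrays and its text does not say which.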

Additional observations from a re-analysis of the deposited data

How the results depend on the processing

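Tried were quantile normalization, centring each array on its median, adding 16 or 50 to the signal, dropping probe sets under the median signal, fitting only both compared groups, a variance prior with no trend, the methods' t-test, averaging a gene's probe sets, a replicate block, and each array left out in turn. The t-test pooled the variance of the compared groups and left out the variance stabilization that the study names. For L-NAME-fed against control the number of genes called was 6, and 5 to 7 in the alternatives, but not always the same genes. The split of 4 higher and 2 lower became 3 and 3 after quantile normalization, where Keap1 took the place of Gsr, and 2 and 4 after centring, where Keap1 and Hmox1 took the place of Nqo1 and Txnrd1. With probe sets averaged Gclc and Srxn1 were lost and Nfe2l2 was gained. With Met the number was 0 in every alternative. For L-NAME-fed against Met-fed it was 5, and 3 with no trend in the variance prior, 3 with probe sets averaged and 3 to 6 when each array was left out. With the replicate block 0, 6 and 5 genes were called, the same numbers, but in L-NAME-fed against Met-fed hearts Gsr took the place of Nfe2l2. The correlations of deviations between arrays of the same replicate number ran from -0.09 to 0.07, -0.17 to 0.05 and -0.21 to 0.24. In the last comparison, L-NAME-fed against Met-fed, 2 of the 4 pairs were over 0.1. These values do not show a clear pairing of the rats and cannot exclude one, and control replicate 5 has no partner. Signs that turned with Met against control, none of them called, were Nfe2l2 (-0.073 to 0.0072 with an array left out), the dim Keap1 probe set (-0.75 to 0.19), the second Srxn1 probe set (-0.35 to 0.46) and the dim Txnrd1 probe set (-0.25 to 0.19, and -0.017 after quantile normalization and -0.019 after centring). Without single arrays these were 0.0072 for Nfe2l2 without Met-fed replicate 4, 0.19 and 0.099 for Keap1 without control replicate 1 and 3, -0.35 for Srxn1 without Met-fed replicate 1, and -0.13 and -0.25 for Txnrd1 without control replicate 4 and Met-fed replicate 1. With L-NAME against control, Nfe2l2 turned to -0.22 after centring, and Gss to -0.022 after quantile normalization and -0.19 after centring. In L-NAME-fed against Met-fed hearts, quantile normalization gave -0.038 for the dim Gclc, -0.11 for Gss and -0.46 for the third Srxn1 probe set, and centring gave -0.13 for Nfe2l2, -0.28 for Gss, -0.057 for the third Srxn1 probe set and -0.17 for Txnrd1. Gclm ranged from -0.18 to 0.013 there with an array left out. The cause of these turns was not tested. Dim probe sets such as those of Gsr lie near the bacterial controls, which limits their precision.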
